A study of Mus musculus with 10 samples.

Results

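The 36 genes described here encode lysosomal enzymes, lysosomal membrane proteins, subunits of the lysosomal proton pump and 2 proteins that act on the organelle from other positions, progranulin and the transcription factor Tfeb. They were taken by gene symbol from the deposited table of TPM values (a read count per unit of gene length, brought to an equal sum for every library, so that levels can be compared between genes), which lists 26264 genes, and all 36 were found. The rule selects by symbol and uses no measured value, but the members were chosen with earlier results of these data known, and they were read against the microglial genes Cx3cr1 and C1qb in each library. The libraries hold polyadenylated RNA from CD31-positive endothelial cells, the cells that line blood vessels, sorted by flow cytometry from mouse brain freed of meninges, cerebellum and olfactory bulbs. All mice were of strain C57BL6. The control group of 5 libraries, 3 male and 2 female, came from mice on control diet for 1 month, and the treated group, again 3 male and 2 female, from mice on diet with PLX5622 at 1200 ppm for 1 month. PLX5622 inhibits CSF1R, the receptor kinase on which microglia depend for survival, and is given to remove microglia from the brain. The drug is given to the whole animal, so other cells that use CSF1R are exposed to it. The ages of the mice are not given in the labels, and the titles call the replicates biological.

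Lysosomes are acidic compartments in which proteins, complex sugars and lipids taken up by the cell or delivered by autophagy are broken down to building blocks. The vacuolar proton pump keeps the interior acid, soluble hydrolases do the cutting, and heavily glycosylated membrane proteins line the inner face and carry products and ions across. Every cell with a nucleus makes these proteins, but phagocytes such as microglia make some of them in large amounts, so several lysosomal genes are used in brain tissue as microglial markers. Endothelial cells of brain vessels use lysosomes to degrade cargo that they take up from the blood and to limit its passage into the brain.

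Many lysosomal genes carry in their promoters the E-box CACGTG, the core of the element bound by Tfeb and its relatives, and stretches of 5 member promoters are shown because they hold it in its longer palindromic form or in the largest number. RefSeq windows from 250 bases before to 50 bases after the start of transcription, in build GRCm38.p6, were at hand for 31 of the 36 members. CACGTG occurred in 12 of these 31 (38.7%), against 8.09% of the 27025 genes with a window. The form TCACGTGA, which contains CACGTG, occurred in 5 members (16.1%), Atp6v0d1, Ctsa, Ctsd, Gla and Mcoln1, against 1.12% of genes. The comparison takes in genes that were not tested here, and the shares among tested genes alone were not counted. Both motifs read the same on either strand, and no mismatch was allowed. Each stretch below lies before the start, is written 5′ to 3′ on the strand of the gene, and has CACGTG in capitals. Ctsa is at chr2:164833730-164833772 on the plus strand, Ctsd at chr7:142387889-142387956 on the minus strand, Gla at chrX:134601163-134601255 on the minus strand, Lamp1 at chr8:13159090-13159160 on the plus strand, and Mcoln1 at chr8:3500443-3500510 on the plus strand.
Ctsa: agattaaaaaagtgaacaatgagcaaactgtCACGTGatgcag
Ctsd: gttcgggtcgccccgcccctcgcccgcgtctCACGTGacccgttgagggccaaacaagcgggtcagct
Gla: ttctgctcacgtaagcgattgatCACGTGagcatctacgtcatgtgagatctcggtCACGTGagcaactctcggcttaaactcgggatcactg
Lamp1: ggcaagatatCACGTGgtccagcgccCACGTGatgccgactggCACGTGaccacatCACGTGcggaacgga
Mcoln1: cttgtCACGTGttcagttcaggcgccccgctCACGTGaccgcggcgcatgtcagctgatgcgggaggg

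The Lamp1 stretch holds 4 copies within 71 bases, the most of any member, and the Gla and Mcoln1 stretches hold 2 each. A match is a description of letters and was not tied to binding by any measurement in these files.

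Library depth, recovered from the deposited values, ran from 26.4 to 61.5M reads with a median of 31.2M, and control male 2 was the deepest. The 12 genes of the endothelial list summed to 23423 to 24283 TPM on control diet and to 23412 to 24311 TPM on PLX5622, and limma called 0 of them, with 0 at an unadjusted p under 0.05 and 0 calls in the authors' deposited table. Pecam1, the gene of CD31, had means of 1476 ± 27.2 and 1489 ± 42.6 TPM (SD, n = 5 each). A list of 27 microglial genes summed to 47.0 to 261 TPM on control diet and to 43.4 to 61.3 TPM on PLX5622, and 7 of the 27 (Cx3cr1, C1qc, P2ry13, Trem2, Siglech, Fcrls and Aif1) were at 0 in every PLX5622 library. Most of the mean PLX5622 sum, 53.6 TPM, was Cd68. Its reads, pooled over each diet and scaled to depth, had a ratio of control to PLX5622 of 0.996. Control female 1 was unlike the other controls: its list sum was 47.0 TPM, and Cx3cr1 and C1qb were both at 0. Of the list, 8 genes passed the filter described next, limma called 0 of them with 6 at an unadjusted p under 0.05, and the authors' deposited table called 19 of the 27 lower. In bulk RNA, fewer cells of a type and less RNA per cell cannot be told apart.

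None of the 36 lysosomal genes passed the test for a difference between the diets. All 36 passed the filter of at least 1 TPM in at least 5 of the 10 libraries, and limma on log2(TPM + 1), with sex in the model and Benjamini-Hochberg adjustment over the 12751 genes tested, called 0 higher and 0 lower at an adjusted p under 0.05. Over all tested genes the same test called 0.133%, with 0.0941% higher and 0.0392% lower, so a set of 36 with no call lies near the background. The smallest adjusted p among the members was 0.429, for Ctsh. At an unadjusted p under 0.05 there were 4 members (Ctsh, Ctsl, Gusb and Scarb2), or 11.1%, against 8.31% of all tested genes and 9.41% of genes at or above the mean level of the lowest member. The authors' deposited DESeq2 table also held 0 members at an adjusted p under 0.05, against 0.596% of its 19474 genes (0.267% higher and 0.329% lower), and 3 members at an unadjusted p under 0.05, against 6.33%. limma voom on the recovered reads called 0 members, with 2 at an unadjusted p under 0.05.

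The intervals show how large a change these libraries would have left room for. The log2 fold changes, PLX5622 over control on the log2(TPM + 1) scale, ran from -0.19 for Ctsh to 0.16 for Ctsl with a median of -0.03, beside a median of -0.02 over all tested genes. Their median size was 0.07, beside 0.08 over all tested genes. In direction, 13 members lay above 0 and 23 below, or 36.1% above, against 44.3% of all tested genes. The 95% interval of the diet difference lay within 1.5-fold either way for all 36 members, as it did for 88.0% of all tested genes, and within 1.25-fold for 30 of the 36. The outermost bounds were -0.40 on the log2 scale for Cd63, or 0.759-fold, and 0.42 for Sgsh, or 1.33-fold. These intervals are for single genes and are not adjusted for their number.

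**Figure D1:**
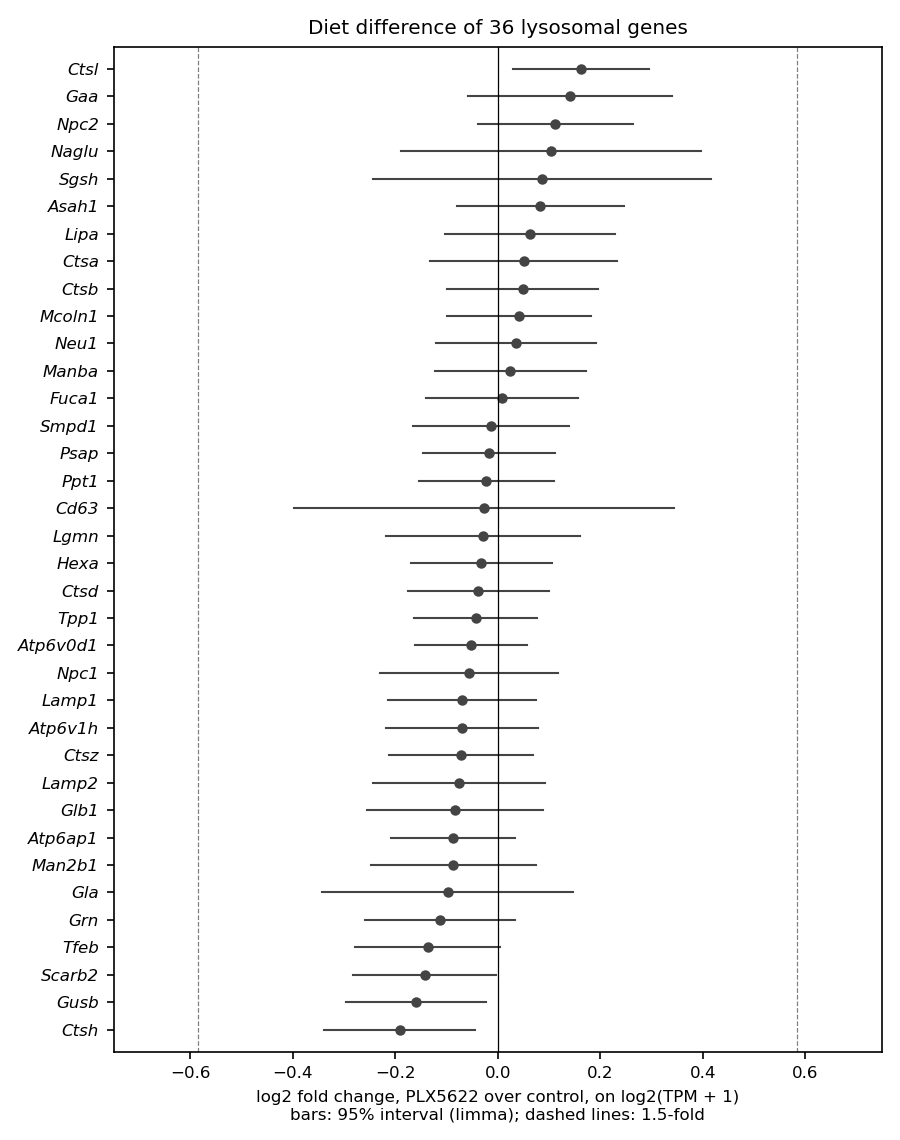
Log2 fold change of each of the 36 lysosomal genes, PLX5622 over control on the log2(TPM + 1) scale, with its 95% limma interval as a bar, ordered by size. All 36 intervals lie between the dashed lines at 1.5-fold, with Ctsl at 0.16 at the top and Ctsh at -0.19 at the bottom.

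The members were well expressed and steady. By mean level 14 stood at 100 TPM or more, 20 between 20 and 100 TPM, and 2, Cd63 and Sgsh, under 20 TPM, and the highest mean was 89.3 times the lowest. The coefficient of variation within a diet ran from 3.25 to 20.7% on control diet with a median of 7.39%, and from 3.18 to 22.5% on PLX5622 with a median of 7.58%. For 32 of the 36 the highest and lowest of the 10 libraries lay within 1.5-fold of each other. Reads per member and library ran from 102, for Cd63, to 43274, for Psap, with counting errors of 9.90% and 0.481%. Cd63, the member with the fewest reads, had the widest coefficients of variation, 20.7% on control diet and 22.5% on PLX5622. Both were above its largest counting error of 9.90%.

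**Figure D2:**
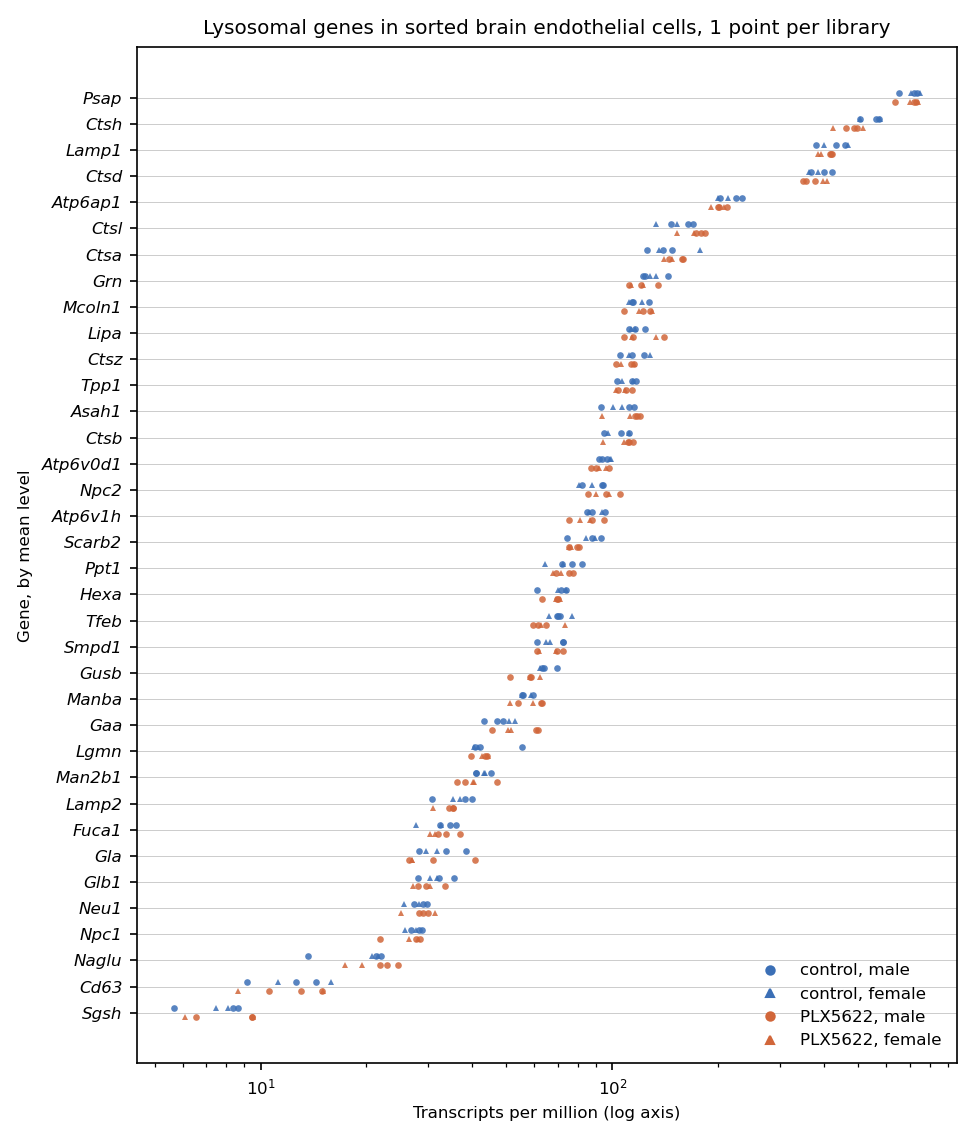
Level of each lysosomal gene in TPM on a log axis, 1 point per library, with circles for males and triangles for females, blue for control and orange for PLX5622, ordered by mean level. Psap is at the top and Sgsh at the bottom, and the points of the diets lie over each other in every row but that of Gusb.

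Among the 8 proteases, 3 lay above 0 and 5 below, with a median log2 fold change of -0.03. Ctsh, cathepsin H, an aminopeptidase, was the most abundant of them. Its levels were 561, 574, 505, 577 and 507 TPM in control males 1 to 3 and females 1 and 2, and 487, 462, 495, 517 and 425 TPM in the PLX5622 libraries in the same order. The diets overlapped, because PLX5622 female 1 at 517 TPM was above control male 3 and control female 2. The log2 fold change was -0.19 ± 0.07 (SE), with a 95% interval of -0.34 to -0.04 and a limma adjusted p of 0.429. Ctsl, cathepsin L, an endopeptidase, was the member furthest above 0 and is named after its value was seen. It stood at 147, 170.0, 164, 153 and 133 TPM on control diet and at 178, 173, 184, 170.2 and 152 TPM on PLX5622. PLX5622 female 2 was the only treated library within the control range. Its log2 fold change was 0.16 ± 0.06 (SE), with an interval of 0.03 to 0.29 and a limma adjusted p of 0.476.

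The other proteases showed no diet order. Ctsd, cathepsin D, the main aspartic protease of the lysosome, stood at 398, 422, 368, 384 and 363 TPM on control diet and at 377, 354, 348, 397 and 408 TPM on PLX5622. Both ranges cover nearly the same span. Ctsa, a carboxypeptidase that also protects the galactosidase and neuraminidase in a complex, had means of 145 and 149.6 TPM on control diet and PLX5622. Ctsz, a carboxypeptidase, had means of 116 and 110.4 TPM, and Tpp1, a tripeptidyl peptidase, 111 and 107 TPM. Ctsb, a cysteine protease, averaged 104 and 108 TPM. Lgmn, the asparaginyl endopeptidase that processes cathepsins, averaged 44.0 and 42.8 TPM, with control male 2 at 55.4 TPM above all other libraries.

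Among the 10 glycosidases and the sulfatase Sgsh, 6 lay above 0 and 5 below, with a median log2 fold change of 0.01. Hexa, a subunit of beta-hexosaminidase, an enzyme of ganglioside breakdown, was the most abundant. Its levels were 71.7, 74.0, 61.2, 74.0 and 70.1 TPM on control diet and 69.5, 63.0, 70.0, 70.9 and 69.2 TPM on PLX5622. Every PLX5622 library lay inside the control range. Its log2 fold change was -0.03 ± 0.06 (SE), with an interval of -0.17 to 0.11 and a limma adjusted p of 0.953. Gusb, beta-glucuronidase, was the only member whose diets did not overlap, a pattern seen in 1.8% of all tested genes. Its levels were 63.9, 69.6, 63.2, 62.3 and 63.5 TPM on control diet and 51.2, 58.4, 58.8, 62.1 and 58.2 TPM on PLX5622. The gap was narrow, since the highest PLX5622 library stood at 62.1 and the lowest control at 62.3 TPM. The diet difference was a log2 fold change of -0.16 ± 0.06 (SE), with an interval of -0.30 to -0.02 and a limma adjusted p of 0.512. In the authors' deposited table its log2 fold change was -0.14 with an adjusted p of 0.834.

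No diet order showed in the remaining glycosidases. Manba, beta-mannosidase, had means of 56.9 and 58.1 TPM on control diet and PLX5622, and Man2b1, alpha-mannosidase, 42.8 and 40.4 TPM. Gaa, the acid glucosidase that degrades glycogen, had means of 48.6 and 54.0 TPM, with PLX5622 males 1 and 2 at 60.8 and 61.5 TPM above every control and the other 3 treated libraries within the control range. Gla, alpha-galactosidase A, had means of 32.3 and 30.4 TPM and Glb1, beta-galactosidase, 31.5 and 29.7 TPM. Fuca1, alpha-fucosidase, had means of 32.7 and 32.8 TPM, and Neu1, the lysosomal neuraminidase, 27.9 and 28.7 TPM. Naglu and Sgsh, which act in heparan sulfate breakdown, were the lowest of the group. Naglu stood at 21.3, 22.0, 13.6, 20.8 and 21.5 TPM on control diet and at 24.5, 22.9, 21.9, 17.4 and 19.4 TPM on PLX5622. Sgsh stood at 8.34, 8.65, 5.68, 7.47 and 8.06 TPM on control diet and at 9.46, 9.48, 6.56, 6.11 and 9.55 TPM on PLX5622. Both genes were lowest in control male 3, and their diets overlapped.

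Among the 7 lipid and thioester hydrolases, saposins and cholesterol exporters, 3 lay above 0 and 4 below, with a median log2 fold change of -0.01. Psap, the precursor of the saposins that present sphingolipids to their hydrolases, was the most abundant of all members. It stood at 721, 733, 654, 748 and 707 TPM on control diet and at 731, 719, 635, 738 and 699.9 TPM on PLX5622. Male 3 was the lowest library on either diet, and the ranges overlapped almost fully. This gave a log2 fold change of -0.02 ± 0.06 (SE), with an interval of -0.15 to 0.11 and a limma adjusted p of 0.975, and in the authors' deposited table it was 0.0021, so its sign was not fixed. Npc2, the soluble protein that hands cholesterol to the exporter Npc1, stood at 93.5, 94.2, 82.2, 87.7 and 80.1 TPM on control diet and at 105, 85.2, 95.8, 97.6 and 89.9 TPM on PLX5622. The diets overlapped, with 3 treated libraries above every control. Npc1 itself had means of 27.5 and 26.5 TPM. The lipase Lipa had means of 116 and 122 TPM, the ceramidase Asah1 105 and 112 TPM, the sphingomyelinase Smpd1 67.4 and 66.8 TPM, and the palmitoyl thioesterase Ppt1 73.5 and 72.2 TPM.

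Among the 5 membrane proteins, 1 lay above 0 and 4 below, with a median log2 fold change of -0.07. Lamp1, a main glycoprotein of the lysosomal inner face, stood at 433, 460.0, 378, 467 and 399.6 TPM on control diet and at 416, 418, 422, 392 and 385 TPM on PLX5622. All treated libraries lay inside the control range. The fitted log2 fold change was -0.07 ± 0.07 (SE), with an interval of -0.21 to 0.08 and a limma adjusted p of 0.872. Scarb2, the receptor that carries glucocerebrosidase to lysosomes, is named after its value was seen and stood at 92.9, 87.5, 74.6, 84.4 and 89.3 TPM on control diet and at 80.5, 79.5, 75.4, 75.1 and 76.4 TPM on PLX5622. Control male 3 lay below all 5 treated libraries, and the other 4 controls lay above them. On the log2 scale the diet difference was -0.14 ± 0.06 (SE) with a limma adjusted p of 0.587. Mcoln1, the calcium-permeable channel of the lysosomal membrane, had means of 118 and 121 TPM and was the only member of the group above 0. Lamp2, the relative of Lamp1 that takes part in chaperone-mediated autophagy, had means of 36.2 and 34.2 TPM. Cd63, a tetraspanin of late endosomes, had means of 12.6 ± 2.62 and 12.4 ± 2.79 TPM (SD, n = 5 each), and since the reference names a Cd63 pseudogene its reads may be shared.

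All 3 proton pump subunits lay below 0, under every refit tried, and none was called; their median was -0.07 on the log2 scale. Atp6ap1, an accessory subunit of the pump, stood at 225, 234, 203, 213 and 200.0 TPM on control diet and at 211, 200.1, 201, 208 and 190.4 TPM on PLX5622. The ranges overlapped from 200.0 to 211 TPM. The log2 fold change was -0.09 ± 0.06 (SE), with an interval of -0.21 to 0.03 and a limma adjusted p of 0.75. Atp6v0d1, of the membrane sector, had means of 95.8 and 92.4 TPM, and Atp6v1h, of the cytosolic sector, 89.3 and 85.1 TPM.

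Progranulin and Tfeb both lay below 0, under every refit tried, and neither was called. Grn, which encodes the secreted and lysosomal protein that is cut into granulins, stood at 124, 144, 122, 128 and 133 TPM on control diet and at 135, 121, 111, 122 and 113 TPM on PLX5622. The ranges overlapped, with PLX5622 male 1 above 4 of the 5 controls. Its log2 fold change was -0.11 ± 0.07 (SE), with an interval of -0.26 to 0.03 and a limma adjusted p of 0.728. Tfeb, the transcription factor that activates lysosomal genes, is named further after its value was seen and stood at 71.0, 69.5, 70.1, 65.9 and 77.0 TPM on control diet and at 61.6, 64.9, 59.3, 62.6 and 73.3 TPM on PLX5622. Apart from PLX5622 female 2, every treated library lay below every control. The diet difference was a log2 fold change of -0.14 ± 0.06 (SE) with a limma adjusted p of 0.618. Among the members with CACGTG in the promoter window 6 of 12 lay above 0, with a median of 0.01, and among the 19 with a window but no CACGTG 5 lay above 0, with a median of -0.03. These values describe the members and were not tested.

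Set against the microglial genes library by library, the members stayed in a narrow range while Cx3cr1 and C1qb went to 0 or near it. Cx3cr1, the fractalkine receptor of microglia, stood at 2.15, 3.78, 3.93, 0 and 6.66 TPM in control males 1 to 3 and females 1 and 2 and at 0 in all 5 PLX5622 libraries. Over the pooled reads this was 840 against 0, at least 212-fold lower on PLX5622 with a floor of 3 reads over the group. C1qb, a chain of complement C1q made by microglia, stood at 10.9, 16.7, 24.9, 0 and 22.4 TPM on control diet and at 0.199, 0.0952, 0, 0.247 and 0.185 TPM on PLX5622. Its pooled reads were 1099 against 8, a ratio after scaling to depth of 104 with a 95% counting interval of 52.7 to 242. The 36 members summed to 4511 ± 221 TPM in the controls and 4388 ± 104 TPM in the treated libraries (SD, n = 5 each), or 0.420 to 0.476% and 0.425 to 0.449% of all TPM. The treated sums lay inside the control range.

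Within the control diet the order of libraries differed between the members and the microglial genes. Control male 3 had the highest C1qb and microglial list sum, 24.9 and 261 TPM, and the lowest member sum, 4200 TPM, with 31 of 36 members below their own mean over the 10 libraries and 9 at their lowest. Cx3cr1 was instead highest in control female 2, at 6.66 TPM against 3.93 TPM in control male 3. The member sum of control female 2 was 4379 TPM. Control female 1, with Cx3cr1 and C1qb at 0, had a member sum of 4616 TPM, above that of every PLX5622 library, and no member at its lowest there. The order held for the sum, in which abundant members weigh most. In the members' mean log2 level, centred per gene, control female 1 stood at 0.0268, below PLX5622 males 1 and 2 at 0.0302 and 0.0275. Control male 2 had the highest sum, 4762 TPM, and 8 members at their highest. On PLX5622 the lowest library was female 2 with 4247 TPM and 28 members below their own mean.

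**Figure D3:**
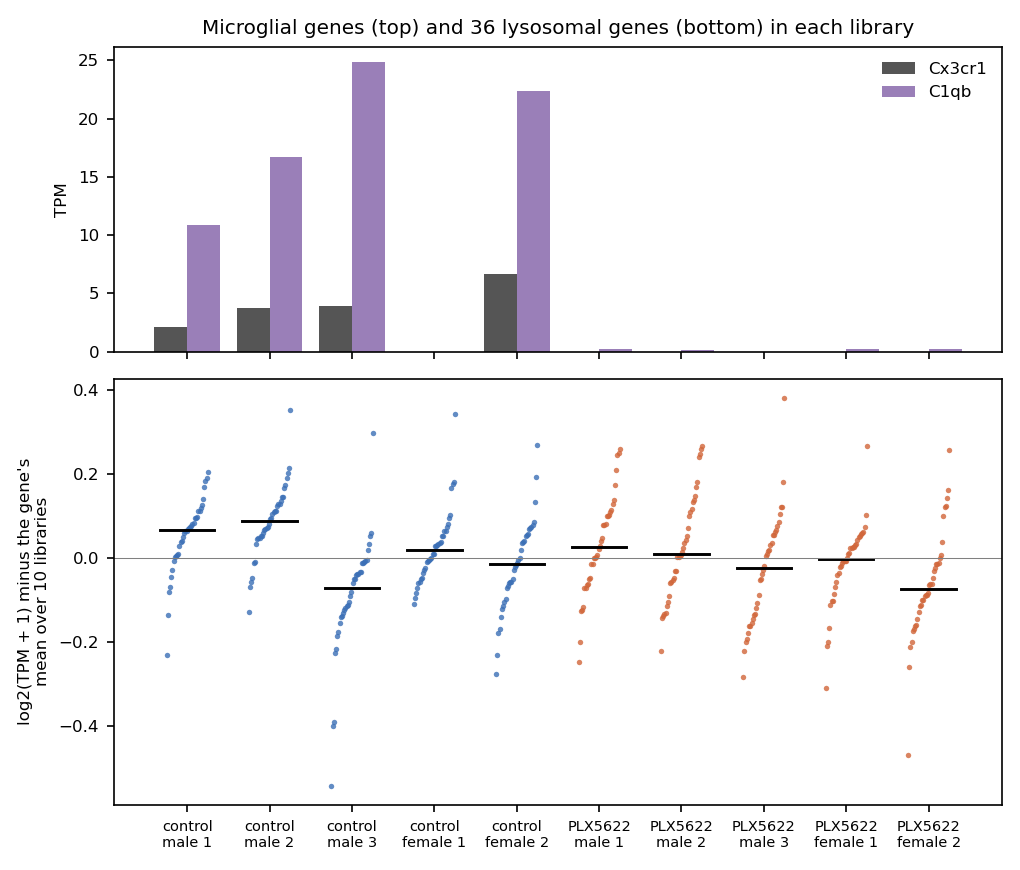
Top, Cx3cr1 and C1qb in TPM as bars for each of the 10 libraries. Bottom, for each library, the log2(TPM + 1) of the 36 lysosomal genes minus the mean of each gene over the 10 libraries, 1 point per gene in order of size with the median as a line. The microglial bars are at or near 0 in control female 1 and all PLX5622 libraries, while the lysosomal medians stay between -0.07 and 0.09 in all libraries.

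The 4 further lysosomal lists, as reported here, held no gene called by limma. In the list of other lysosomal hydrolases 31 of 34 genes were tested and limma called 0 in either direction, with 3 at an unadjusted p under 0.05; the median was -0.03 on the log2 scale, and the authors' deposited table called 1 gene, Ctss, lower. In the other membrane proteins (28 of 33 tested), the other proton pump subunits (18 of 23) and the genes of lysosomal sorting and regulation (38 of 40) limma called 0 in either direction, with medians of -0.07, -0.02 and -0.01. At an unadjusted p under 0.05 these 3 lists held 3, 1 and 1 genes, and the authors' deposited table called 0 in each. Border macrophage markers (3 of 12 tested, list sums of 134 to 153 and 130 to 149 TPM on control diet and PLX5622), mural cells (10 of 10), astrocytes (8 of 8), oligodendrocytes (2 of 8) and neurons (4 of 8) held 0 called genes by limma and 0 in the authors' deposited table. At an unadjusted limma p under 0.05 the mural list held 2 genes and the other 4 lists none. The border macrophage sums were carried by Stab1 and Dab2, and the other 10 markers summed to 4.37 to 7.55 TPM on control diet and 2.63 to 5.49 TPM on PLX5622. Of these 10, named after its value was seen, Mrc1, the mannose receptor, rested on 170 pooled control reads against 21 treated reads, and its log2 fold change in the authors' deposited table was -2.66 with an adjusted p of 0.126. There the rest of the 10 ran from -3.35 for Ms4a7 to 0.26 for Cd163, which alone lay above 0. Their smallest DESeq2 adjusted p was 0.916, for F13a1. Pf4, with the highest mean count of the 10, stood at -0.39. The part of these cells in the members' values was not tested.

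Ctss, cathepsin S, a protease of antigen-presenting cells that is also on the microglial list, lay below the filter and was not tested by limma. It stood at 9.41, 17.7, 28.6, 0.589 and 19.5 TPM on control diet and at 0.0806, 0.309, 0.269, 0.134 and 0.451 TPM on PLX5622. Its pooled reads were 1369 against 17, a ratio of 61.0 with a counting interval of 38.0 to 105, and the log2 fold change in the authors' deposited table was -5.91. Control female 1 was the lowest control for Ctss, as for Cx3cr1 and C1qb. Cd68, a phagocyte membrane protein on the other membrane list and the microglial list, stood at 37.2 ± 9.47 and 35.5 ± 8.39 TPM (SD, n = 5 each), with a log2 fold change of -0.06 and a limma adjusted p of 0.974. Laptm5, a lysosomal membrane protein of blood-derived and phagocytic cells that is on the same lists and is named after its value was seen, stood at 11.8, 14.3, 13.2, 6.70 and 15.4 TPM on control diet and at 8.85, 9.26, 7.69, 8.53 and 6.43 TPM on PLX5622. The diets overlapped only through control female 1. Its log2 fold change was -0.50 ± 0.17 (SE) with a limma adjusted p of 0.418, and in the authors' deposited table it was -0.57 with an adjusted p of 0.18. The part of microglial RNA in the Ctss and Laptm5 values was not tested.

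**Figure D4:**
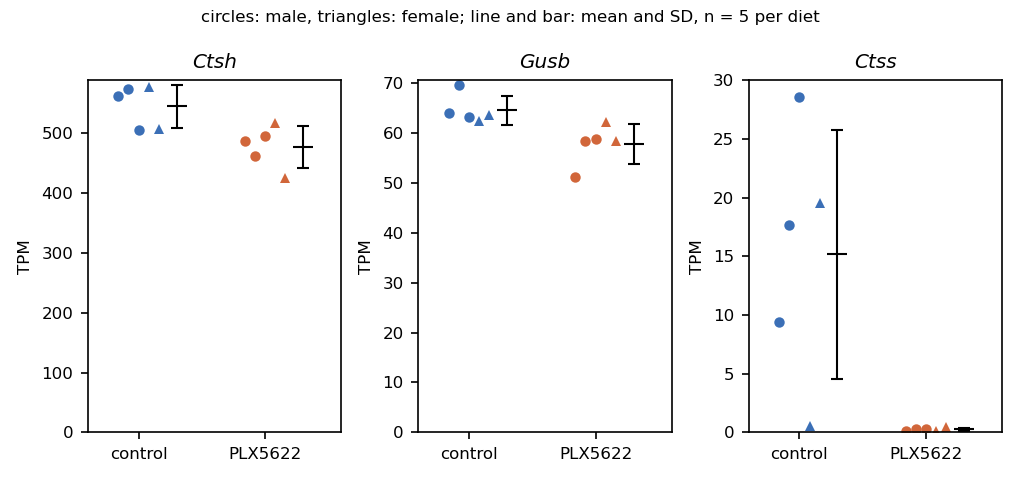
TPM of Ctsh, Gusb and Ctss in each library by diet, with circles for males, triangles for females, and the mean and SD as line and bar (n = 5 per diet). Ctsh overlaps between the diets, Gusb is separated by the narrow gap from 62.1 to 62.3 TPM, and Ctss is near 0 on PLX5622 and in control female 1.

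Sex was compared over the same libraries, 6 from males and 4 from females. In the model with diet, limma called 0 of the 36 members for sex, against 0.0627% of all tested genes, and 2 members, Ctsl and Fuca1, at an unadjusted p under 0.05, against 5.8%. The interaction of sex with diet gave 0 members and 0.0% of all tested genes at an adjusted p under 0.05. At an unadjusted p under 0.05 it gave 0 members against 2.45% of genes, with 0.056 for Ctsd as the lowest member p, and voom and other pseudocounts also gave 0 calls. With 2 females per diet, a difference between the sexes in the diet response of a member may lie below what could be detected.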

How the data were processed

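Per the labels' protocols, polyadenylated RNA of CD31-positive cells sorted from mouse brain went into non-stranded libraries, so reads of overlapping and antisense genes stay mixed. Per the submitters' processing notes, the tools were STAR 2.7.10a, featureCounts of Subread 2.0.1 and DESeq2 1.32.0 in R 4.1.0, with build mm39. The authors deposited TPM for 26264 genes in 10 libraries. A DESeq2 result table for 19474 genes, deposited by the authors, holds log2 fold changes, p-values and adjusted p-values. The mean normalized count that the authors computed in it was used to recover whole reads, and their test statistic was handled as a score value. The sources used here do not give its model formula.

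Genes were tested on log2(TPM + 1) with limma 3.58.1 (R 4.3.3), using trended variance, diet and sex as terms, two-sided, a filter of 1 TPM in 5 libraries and a Benjamini-Hochberg threshold of 0.05. The pseudocount of 1 understates the change of low genes. Whole reads were recovered from the deposited TPM and the authors' mean counts, with 100.0% of values whole within 0.05 reads. They gave the depth, 26.4 to 61.5M reads per library, the ratios of pooled reads, and a voom alternative. Counting intervals at 95% and the floor of 3 reads cover counting error only. On simulated data with 12751 genes of the diet comparison, 94.9% of intervals held the true value. Changes were planted in 200 of these genes, some of them larger than 1.5-fold. Of the planted changes, 30% of those of 1.25-fold and 72% of those of 1.5-fold were called. The real fit called 17 genes. With fewer changed genes the adjusted threshold is stricter, so these shares may be too high for the real data.

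The members and lists were chosen with earlier results of these data known. The rule for full statistics took members called by limma or by the authors' table, members whose diets do not overlap, and the most abundant member of each of 6 role groups. RefSeq promoter windows are of build GRCm38.p6, not the authors' mm39, and were used by gene symbol. Alternatives covered scaling, pseudocount, filter, variance model, covariates, weights, pairing, subsets, left-out libraries and the authors' table. An item of the lists is not reported here and was left out of their counts and sums.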

Additional observations from a re-analysis of the deposited data

Results flagged for a closer look

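In 6 of 72 groups, each a member on 1 diet in 5 libraries, the gene had a library whose gap to the nearest of the others passed Dixon's critical value of 0.71 of the group's range, where chance gives about 1 in 20. Lgmn stood at 55.4 TPM in control male 2, with the other controls at 40.3 to 42.0 TPM. Gusb stood at 69.6 TPM in control male 2, with the others at 62.3 to 63.9 TPM. Naglu stood at 13.6 TPM in control male 3, with the others at 20.8 to 22.0 TPM. On PLX5622, Hexa stood at 63.0 TPM in male 2, with the others at 69.2 to 70.9 TPM. Asah1 stood at 93.2 TPM in female 2, with the others at 112 to 120 TPM, and Lamp2 at 31.0 TPM in female 2, with the others at 34.3 to 35.3 TPM.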

How the results depend on the processing

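No member was called in any of 25 refits, at an adjusted p under 0.1 or in the authors' deposited table, and the smallest adjusted p of a member over the refits was 0.275. The members' median log2 fold change stayed between -0.06 and -0.01. The SD between single libraries of a diet, in the members' mean log2 level, was 0.0566. That SD is not the error of a difference between the diets, so the shift was not tested against it. The number of members above 0 ran from 10 to 17, and 19 of 36 members changed sign under at least 1 refit. Hexa turned to 0.0131 without both control female 1 and PLX5622 male 2. Psap turned to 0.0023 with median-of-ratios scaling, 0.0028 with voom, 0.0021 in the authors' table, 0.0003 without control male 2 and 0.0179 without PLX5622 male 3, in a range of -0.0449 to 0.0179 over left-out libraries. Over all genes the calls, 12 higher and 5 lower, became 7 and 0 with no filter, 6 and 1 with variance without trend, 3 higher in males only, 0 and 0 in females only, 1 and 1 without both libraries, and 52 and 64 in the authors' table. Lower calls were 9 with sample weights, 2 with the replicate block and 8 at the threshold of 0.1. Leaving out each library gave 5 to 11 higher and 0 to 7 lower. Same-numbered male libraries correlated at 0.121 (male 1), 0.0309 (male 2) and 0.190 (male 3), after the mean of each diet and sex was taken off. With 2 females per diet, the female pairs must give the same value, here 0.157, so they do not count separately. The labels state no shared animal or day, and the numbers were not treated as pairs. The block called 0 members. The causes were not tested. With 5 libraries a diet, 30% of simulated 1.25-fold and 72% of 1.5-fold changes were called in a fit of 12751 genes. That fit held planted changes in 200 genes, some larger than 1.5-fold, while the real fit called 17 genes. The shares may therefore be too high for the real data. Over such a range of genes, changes of 1.5-fold may also go uncalled. The share called was not worked out for the members alone. In the main fit the single-gene limma interval lay within 1.5-fold either way for all 36 members.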
